A study of Mus musculus with 12 samples.

Results

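The oligodendrocyte transcription factors described here are 8 genes chosen by symbol, Olig1, Olig2, Sox10, Sox8, Myrf, Nkx2-2, Nkx6-2 and Zfp488. All 8 were found among the 16855 genes listed for mice on the chow diet and among the 16744 genes listed for mice on the HFD. The RNA came from the hypothalamus of male mice aged 8 weeks in 4 groups of 3: WT (+/+) on the chow diet, Gpr75-/- on the chow diet, WT on a high-fat diet (HFD) for 2 weeks from 6 weeks of age, and Gpr75-/- on the same HFD. The mice are C57BL/6J, and the Gpr75-/- allele, made by CRISPR/Cas9, is a frameshift early in the protein-coding part of the gene. Every cell carries it, so a difference cannot be assigned to loss of the receptor in one cell type, and the transcript may still be made, so its level would not check the labels. GPR75 is an orphan G protein-coupled receptor, and the study asked what its loss does in a brain region that controls feeding. Libraries were made from whole tissue with a SMART-Seq mRNA kit.

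Oligodendrocytes wrap axons in myelin, and they arise from precursor cells that persist in the adult brain. Olig2 and Olig1, neighboring basic helix-loop-helix genes, set up the lineage, and Sox10, an HMG-box factor, is needed for precursors to become myelinating cells. Sox10 and its relative Sox8 act on many of the same enhancers. Nkx2-2 is a homeodomain factor of the transition from precursor to oligodendrocyte, and Zfp488 is a zinc finger protein that works with Olig2. Myrf is a membrane-bound factor that is cleaved to release its DNA-binding part, and together with Sox10 it switches on myelin genes such as Mbp. Nkx6-2 is a homeodomain factor of mature oligodendrocytes. The question set for these genes was whether the regulators are lower in Gpr75-/- mice by as much as the myelin genes.

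RefSeq promoter sequences (GRCm38.p6) were at hand for 5 of the 8 genes: Olig2, Sox8, Nkx2-2, Nkx6-2 and Zfp488. Those of Olig2, Zfp488 and Nkx2-2 are shown because these genes were the 3 lowest of the 8 in HFD-fed Gpr75-/- mice. Each is the 250 bases before the transcription start, 5′ to 3′ on the strand of the gene, at chr16:91225300-91225549 (plus strand), chr14:33978765-33979014 (minus strand) and chr2:147186403-147186652 (minus strand). Capitals mark matches on either strand to the E-box CANNTG, the motif of basic helix-loop-helix factors such as Olig2, or to ACAAT, the core of many SOX sites.
Olig2: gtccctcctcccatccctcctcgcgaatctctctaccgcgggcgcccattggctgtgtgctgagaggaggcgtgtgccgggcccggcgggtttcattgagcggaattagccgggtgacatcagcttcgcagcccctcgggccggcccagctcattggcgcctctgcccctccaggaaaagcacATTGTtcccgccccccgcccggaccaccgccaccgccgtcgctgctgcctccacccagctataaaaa
Zfp488: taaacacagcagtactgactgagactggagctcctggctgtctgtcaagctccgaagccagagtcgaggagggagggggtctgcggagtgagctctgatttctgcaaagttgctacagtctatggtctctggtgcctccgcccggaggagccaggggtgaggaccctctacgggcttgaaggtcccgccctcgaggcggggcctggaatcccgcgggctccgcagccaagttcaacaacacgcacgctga
Nkx2-2: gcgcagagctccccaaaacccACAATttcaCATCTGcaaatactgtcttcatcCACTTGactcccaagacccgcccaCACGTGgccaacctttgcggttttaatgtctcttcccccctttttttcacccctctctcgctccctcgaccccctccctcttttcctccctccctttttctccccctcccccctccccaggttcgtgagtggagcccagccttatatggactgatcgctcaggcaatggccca
The Nkx2-2 promoter held 3 E-boxes, starting 220, 197 and 173 bases before the start, and 1 ACAAT at 229 bases. In the Olig2 promoter, 1 ACAAT match lay 67 bases before the start and no E-box was found, and the Zfp488 window had neither motif. Of the other promoters searched, Sox8 and Nkx6-2 held 1 E-box each. For comparison, 66.2% of all 32851 RefSeq promoter windows held an E-box and 27.7% held ACAAT. No match to one motif overlapped a match to the other in these windows, and a match describes the sequence and does not show binding.

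The values used are the authors' mean of each group of 3 mice, given to 2 decimals on a log2 scale that was itself taken of a log value. Converted back, they are log2 CPM, that is, log2 of counts scaled to a common library total, and set against the mean normalized counts scaled to the same total they differed by a median of -0.01 log2 on each diet, over 14240 genes on chow and 14326 on the HFD. Values of single mice and the authors' own standard errors were not used here, so the spread between mice is not given and no test of genotype was made. Differences are Gpr75-/- minus WT in log2 CPM, and folds are Gpr75-/- over WT. A difference carries a range from the rounding, which spans about 0.09 for most of the 8 genes, and an interval of 95% for counting error alone, computed from the mean count. Neither covers variation between mice, and both are therefore lower limits of the error. At least 1 mouse on chow stood apart in choroid plexus RNA. The mean count of Ttr over the 6 mice, a choroid plexus gene named after its values were seen, was 159 CPM on chow, far above its group means of 5.59 CPM in WT and 12.9 CPM in Gpr75-/- mice, which are means of log values. The group of that mouse cannot be told from the group means, and no value could be computed without it. For all 8 regulators the mean count over the mice, in CPM, lay between the 2 group means on each diet. Means per mouse summed to 18280462 normalized counts on chow and 19420111 on the HFD. In whole tissue, fewer cells of a type and less RNA per cell cannot be told apart.

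All 8 genes were well above the low-count limit of 10 mean normalized counts, from 113 for Zfp488 to 2305 for Olig1 on chow. On chow in WT mice, Olig1 had the highest level per length, 59.2 CPM per kilobase of its longest annotated transcript. Sox10 (20.3), Olig2 (19.0) and Sox8 (16.0) followed in CPM per kilobase, then Myrf (14.0) and Nkx6-2 (12.2). Nkx2-2 (5.83) and Zfp488 (1.34) were the lowest. The order was the same on the HFD, where Sox10 and Olig2 stood at 19.1 and 19.0 CPM per kilobase. Sox10, Olig2, Sox8, Myrf and Nkx6-2 lie close together in this order, and whether neighbors differ beyond the spread between mice cannot be said from the group means. The 2 tables were normalized separately, so levels are set side by side and were not tested between diets.

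**Figure D1:**
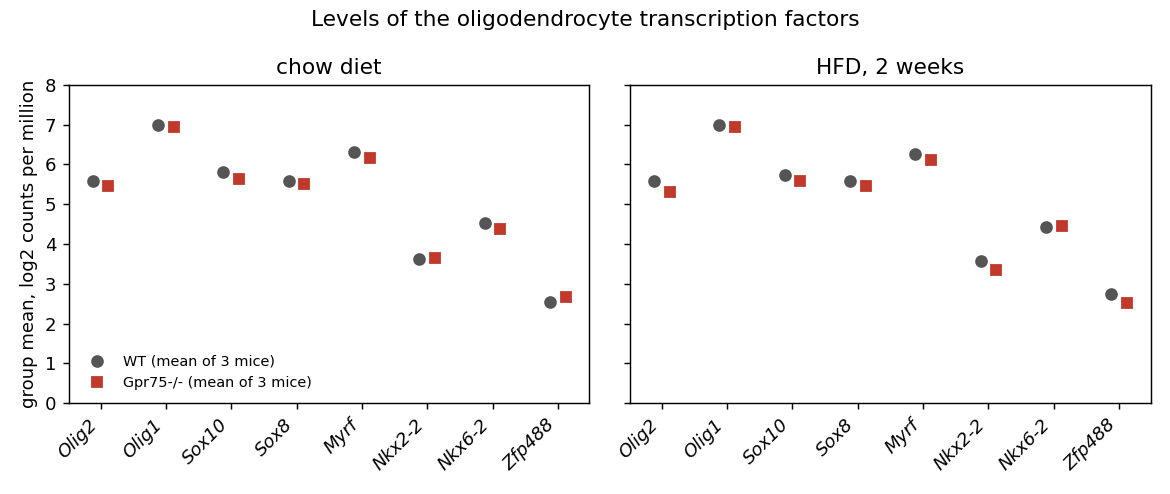
Group means of the 8 oligodendrocyte transcription factors in log2 CPM (vertical axis) on the chow diet and on the HFD, with WT as grey circles and Gpr75-/- as red squares, each the mean of 3 mice. The genotypes differ by at most 0.27 log2, small beside the range between genes.

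Within the Olig pair, Olig2 was the lower of the genes in Gpr75-/- mice. Olig2 (ENSMUSG00000039830, chromosome 16, 91022345 to 91025565, GRCm39) averaged 48.1 CPM in WT and 43.8 CPM in Gpr75-/- mice on chow. Its averages on the HFD were 48.1 CPM in WT and 40.0 CPM in Gpr75-/- mice. Thus the Gpr75-/- mean was below the WT mean on both diets, and the gap was wider on the HFD. The fold was 0.910 on chow (rounding 0.882 to 0.939) and 0.830 on the HFD (0.805 to 0.856), with HFD counting limits of -0.35 and -0.19 log2. Among all genes tested on the HFD, 3.78% had a difference at or below that of Olig2, and 1.37% among genes with a mean of at least 100. Olig1 (ENSMUSG00000046160, 91066660 to 91068821) lies 41.1 kb away and is linked to maturation and myelin repair. It had means of 128 CPM in WT and 123 CPM in Gpr75-/- mice on either diet, a difference of -0.06 log2 that is 1 step of the deposited scale and cannot be separated from 0 by rounding. On the HFD the difference of Olig2 was below that of Olig1 by -0.21 log2 (rounding -0.31 to -0.11, counting -0.30 to -0.12). On chow the gap between the pair was -0.08 log2, with a rounding range of -0.18 to 0.02.

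Both SOX genes had lower means in Gpr75-/- mice on both diets. Sox10 (ENSMUSG00000033006, chromosome 15, 79039108 to 79049440) averaged 56.5 CPM in WT and 49.7 CPM in Gpr75-/- mice on chow, the lowest fold of the 8 genes there at 0.879 (rounding 0.851 to 0.908). On the HFD its means were 53.0 and 48.1 CPM, a fold of 0.908 (0.880 to 0.938). Sox8 (ENSMUSG00000024176, chromosome 17, 25784866 to 25789660) had means of 48.1 CPM in WT on both diets, against 45.2 CPM in Gpr75-/- mice on chow and 43.8 CPM on the HFD. The Sox8 folds were 0.939 (0.910 to 0.969) and 0.910 (0.882 to 0.939). Sox10 and Sox8 were thus within 0.00 log2 of each other on the HFD. On chow Sox10 was below Sox8 by -0.10 log2, with a counting interval of -0.20 to 0.01. Sox8 overlaps the long noncoding RNA Cerox1 over 329 bases, and Cerox1 differed by -0.11 log2 on chow and -0.15 on the HFD. The use of strand in the counting is not given in the sources used here, so reads of overlapping genes may be shared.

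Myrf had almost the same difference on the 2 diets. It (ENSMUSG00000036098, chromosome 19, 10185636 to 10218112) averaged 79.4 CPM in WT and 71.5 CPM in Gpr75-/- mice on chow, and 76.6 and 69.1 CPM on the HFD. Differences were -0.1505 log2 on chow and -0.1494 on the HFD, folds of 0.901 (rounding 0.870 to 0.933) and 0.902 (0.871 to 0.933). With 1377 and 1409 mean normalized counts, its counting interval was narrow, -0.21 to -0.09 log2 on each diet. Its difference between the diets was 0.00 log2 with a rounding range of -0.10 to 0.10.

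The homeodomain genes were each lower in Gpr75-/- mice on one diet. Nkx2-2 (ENSMUSG00000027434, chromosome 2, 147019466 to 147036163) averaged 12.4 CPM in WT and 12.6 CPM in Gpr75-/- mice on chow, which is 1 rounding step. On the HFD it averaged 11.8 CPM in WT and 10.2 CPM in Gpr75-/- mice, a fold of 0.861 (rounding 0.843 to 0.880) with a counting interval of -0.37 to -0.06 log2. So the lower Nkx2-2 mean was seen on the HFD and not on chow. Nkx6-2 (ENSMUSG00000041309, chromosome 7, 139159292 to 139162713) had the reverse order. Its means were 23.3 CPM in WT and 21.0 CPM in Gpr75-/- mice on chow (fold 0.900, rounding 0.877 to 0.924), but 21.5 and 22.1 CPM on the HFD, 1 rounding step apart. On the HFD Nkx2-2 was below Nkx6-2 by -0.25 log2 (rounding -0.32 to -0.19, counting -0.45 to -0.06), and on chow above it by 0.18 log2 (counting -0.01 to 0.37). With rounding added to the counting limits, the range on the HFD also includes equality. Nkx2-2 overlaps the noncoding RNA 6430503K07Rik over 984 bases, which differed by 0.40 log2 on chow and -0.23 on the HFD at 24.4 and 27.9 mean normalized counts, and Nkx6-2 overlaps Inpp5a over 277 bases. Inpp5a was at 0.05 log2 on chow and -0.05 on the HFD.

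Zfp488 (ENSMUSG00000044519, chromosome 14, 33689027 to 33700721) was the least abundant of the 8 genes. It averaged 5.78 CPM in WT and 6.41 CPM in Gpr75-/- mice on chow, a fold of 1.11, and 6.64 and 5.68 CPM on the HFD, a fold of 0.855. The Gpr75-/- mean was thus the higher on chow and the lower on the HFD. With 113 mean normalized counts on chow, the counting interval was -0.07 to 0.37 log2 and includes 0, so a difference was not detectable at this depth. On the HFD the counting interval was -0.44 to -0.02 log2, and it reaches 0.01 once rounding is added.

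**Figure D2:**
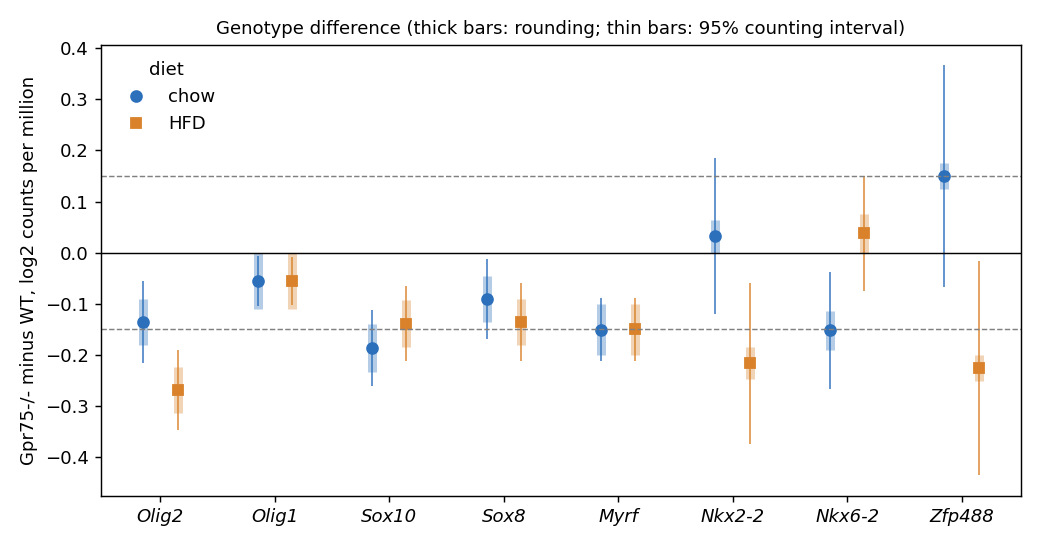
Difference of Gpr75-/- minus WT in log2 CPM for each of the 8 genes on chow (blue circles) and on the HFD (orange squares). Thick bars are the range from rounding, thin bars the 95% interval from counting error alone, and dashed lines mark 0.15 log2. Olig2 on the HFD is the lowest point at -0.27, and Zfp488 has the widest intervals.

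A difference of at least 0.15 log2, which is a mean 9.87% lower when negative, was used to set the 8 genes against all genes. On chow, 3 of the 8 genes were lower by that much (Sox10, Nkx6-2 and Myrf), against 13.6% of the 16851 genes tested, and 0 were higher, against 14.3%. On the HFD, 3 of 8 were lower (Olig2, Zfp488 and Nkx2-2), against 10.6% of 16741, and 0 were higher, against 13.1%. Myrf on the HFD and Zfp488 on chow lay just inside the mark at -0.1494 and 0.1499. On chow, Myrf and Nkx6-2 lay just outside it at -0.1505 and -0.1515, both within rounding of the mark. No gene of the 8 passed it on both diets, where 3.13% of the 16438 genes tested on both did so. With the looser rule of a difference larger than rounding, 5 of 8 were lower on chow (background 29.9%) and 1 was higher (Zfp488, background 32.0%). On the HFD 6 of 8 were lower (background 24.9%) and 0 higher (background 33.0%). Olig2, Sox10, Sox8 and Myrf were lower beyond rounding on both diets, 4 of 8 against 10.6% of all genes. With rounding and counting limits added together, the range lay below 0 on both diets for Olig2, Sox10 and Myrf, and on the HFD also for Sox8 and Nkx2-2. These 8 genes are regulators of the same lineage and were chosen together, so they are not independent of one another. Which cells carry their RNA cannot be read from whole tissue.

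As a list, the 8 genes had a median difference of -0.11 log2 on chow (6 lower, 2 higher) and -0.14 on the HFD (7 lower, 1 higher). The median of all genes tested was 0.00 on each diet. Of all genes tested on chow, 6913 of 16851 were lower and 7549 higher. On the HFD, 6047 of 16741 were lower and 7892 higher. Among the 8, Olig1 on both diets, Nkx2-2 on chow and Nkx6-2 on the HFD were 1 rounding step from equality. Their CPM summed to 402 in WT and 373 in Gpr75-/- mice on chow, a ratio of 0.930, and to 394 and 362 on the HFD, a ratio of 0.919. Olig1 holds the most CPM of the sum. Between the diets, the genotype difference was lower on the HFD for 4 genes and higher for 3, and it was equal for Olig1. Of the 16438 genes tested on both diets, 7308 were lower and 8325 higher in this sense. The changes of Sox10, Sox8 and Myrf were within rounding. Over the 8 genes the median change was -0.02 log2 and the mean change -0.07. The widest change was that of Zfp488, -0.38 log2 (counting -0.68 to -0.07), followed by Nkx2-2 at -0.25 (counting -0.47 to -0.03), Nkx6-2 at 0.19 (counting 0.03 to 0.35) and Olig2 at -0.13 (counting -0.24 to -0.02). With rounding added to the counting limits, the ranges of Nkx2-2, Nkx6-2 and Olig2 include no change, and that of Zfp488 does not. The spread between mice is not covered by these ranges. A difference between the diets was not tested here.

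The myelin genes were lower by more than the regulators on both diets, most clearly on the HFD. Of 24 genes for myelin proteins, lipid enzymes and other products of mature oligodendrocytes, 23 were listed on each diet. On the HFD all 23 were lower in Gpr75-/- mice, 16 of them by at least 0.15 log2, beside 10.6% of all genes. Their median was -0.24 log2 (fold 0.848) against -0.14 (fold 0.905) for the regulators. On chow 20 of 23 were lower, 13 past the mark, beside 13.6% of all genes. The myelin median there was -0.16 log2 (fold 0.895) against -0.11 (fold 0.925). The regulators were thus above the myelin genes by 0.09 log2 at the median on the HFD and by 0.05 on chow, where the rounding of a single regulator extends 0.05 to either side. The gap on chow was 0.02 log2 without any one of Olig1, Sox8, Nkx2-2 or Zfp488. In each diet, 1 of the 8 regulators lay below the myelin median, Sox10 on chow and Olig2 on the HFD. Of the myelin genes, 16 of 23 on the HFD and 17 of 23 on chow lay below the median of the regulators. Past the mark on both diets were 10 of the 23 myelin genes and, as given above, 0 of the 8 regulators, with Myrf short of the mark on the HFD by less than rounding. Lower beyond rounding on both diets were 17 of the 23 myelin genes and 4 of the 8 regulators. The gap between the lists was not tested, since mice are the replicates and genes are not.

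Among the myelin genes, low values on the HFD were those of Opalin (-0.36 log2) and Cldn11, a tight junction gene of myelin (-0.33). Highest there were Apod (-0.06), Gal3st1 (-0.06) and Gjb1 (-0.11). On chow the lowest were Aspa, encoding aspartoacylase (-0.56), Opalin (-0.50) and Fa2h, a fatty acid hydroxylase gene (-0.36), and the highest Enpp2 (0.60), Apod (0.06) and Nfasc (0.00). Enpp2 is also strongly expressed in the choroid plexus, and its mean count over the mice on chow was 459 CPM, near the Gpr75-/- group mean of 461 CPM and above the 305 CPM of WT. In every case but Enpp2, Apod and Nfasc on chow, the Gpr75-/- mean was below that of WT. Summed over the list, the myelin CPM were 14276 in WT and 12508 in Gpr75-/- mice on chow, and 15040 and 12971 on the HFD. Those ratios of sums, 0.876 and 0.862, are below the 0.930 and 0.919 of the regulators.

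**Figure D3:**
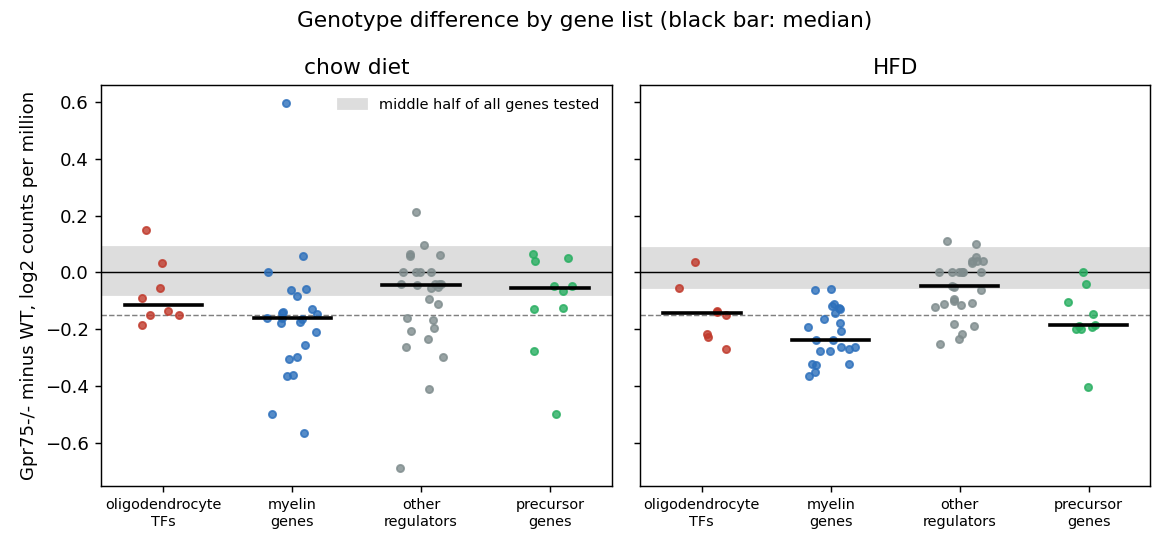
Difference of Gpr75-/- minus WT in log2 CPM (vertical axis) for each gene of 4 lists on chow and on the HFD, 1 point per gene, spread sideways for legibility. Black bars are list medians, the grey band runs from the lower to the upper quartile of all genes tested and the dashed line marks -0.15. The myelin median on the HFD, -0.24, is below the -0.14 of the transcription factors.

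Precursor genes stood between the regulators and the myelin genes on the HFD, and on chow by their mean but not by their median. On the HFD, 9 of 10 were lower and 6 were lower past the mark, beside 10.6% of all genes. The median was -0.19 log2 and the mean -0.17, where the means were -0.14 for the regulators and -0.22 for the myelin genes. On chow 7 of 10 were lower and 2 were lower past the mark, beside 13.6% of all genes. The median there was -0.06 and the mean -0.10, beside means of -0.07 and -0.17 for the other lists. The lowest on the HFD were Enpp6, a gene of newly formed oligodendrocytes (-0.40), C1ql1 (-0.20) and Gpr17, a receptor of committed precursors (-0.20), and the highest Neu4 (0.00), Cspg4 (-0.04) and Lhfpl3 (-0.10). On chow the lowest were Enpp6 (-0.50), Vcan (-0.28) and Ptprz1 (-0.13), and the highest Neu4 (0.07), Lhfpl3 (0.05) and Cspg4 (0.04). Pdgfra, the growth factor receptor that marks precursors and was named after its values were seen, was at -0.05 on chow and -0.19 on the HFD. Enpp6 was the lowest of the list on both diets.

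The 30 other regulators with known parts in this lineage, of which 27 were listed, had a median of -0.05 log2 on each diet, closer to 0 than that of the 8 genes. By the mean this held on the HFD (-0.05 against -0.14) but not on chow (-0.10 against -0.07). Past the mark on chow, 9 of 27 were lower and 1 higher, beside 13.6% and 14.3% of all genes. On the HFD 5 were lower and 0 higher, beside 10.6% and 13.1% of all genes. Low values on chow were those of Hes5 (-0.69), a target of Notch signaling, and St18 (-0.41). The highest on chow were Zfp24 (0.21), Klf6 (0.10) and Tcf7l2 (0.07). On the HFD the lowest were Tcf7l2 (-0.25), an effector of Wnt signaling in newly formed oligodendrocytes, Sox6 (-0.23) and St18 (-0.22), and the highest Hes1 (0.11), Hes5 (0.10) and Smarca4 (0.05). St18 and Sox6 were among those lower past the mark on both diets. Many of these regulators are also expressed in neurons or astrocytes.

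Markers of other cell types were read beside these values. Astrocyte markers passed the mark for 0 of 7 genes on each diet and summed to 2386 CPM in WT and 2393 CPM in Gpr75-/- mice on chow, and to 2478 and 2491 CPM on the HFD. Neuron markers also passed for 0 of 7 on each diet, with sums of 4849 and 4697 CPM on chow and 4539 and 4485 CPM on the HFD. The ratios of sums, Gpr75-/- over WT, were 1.003 and 1.005 for astrocytes and 0.968 and 0.988 for neurons on chow and the HFD, against 0.930 and 0.919 for the 8 regulators. In the same order they were 0.959 and 0.950 for microglia and 0.957 and 0.949 for endothelium. For ependymal cells and tanycytes they were 1.059 and 0.950, for choroid plexus 1.736 and 1.004, and for red blood cells 1.599 and 0.893. The red blood cell ratio on the HFD was thus below that of the regulators. Microglia markers passed the mark for 1 of 5 on chow (Cx3cr1, lower at -0.22) and 0 of 5 on the HFD, with medians of -0.05 on each diet. Endothelial markers passed it for 0 of 5 on each diet, with medians of -0.08 and -0.09. Choroid plexus markers were higher past the mark for 6 of 6 on chow, summing to 36.3 CPM in WT and 63.0 CPM in Gpr75-/- mice, and of 3 listed on the HFD 1 was higher and 1 lower past the mark (29.7 and 29.8 CPM). The group means of Ttr differed by 1.21 log2 on chow, where at least 1 mouse stood apart, and by -1.41 on the HFD. Red blood cell markers were higher past the mark for 5 of 5 on chow (277 and 443 CPM) and lower for 4 of 5 on the HFD (314 and 280 CPM). Of 4 ependymal and tanycyte markers, 2 were higher and 0 lower past the mark on chow and 2 lower and 0 higher on the HFD, with medians of 0.05 and -0.14. Of 8 hypothalamic genes used to check the tissue, all were listed, and in Gpr75-/- mice 6 were higher and 0 lower past the mark on the HFD, while on chow 1 was higher (Agrp, 0.32) and 2 were lower (Pomc, -0.28, and Nkx2-1, -0.20), with sums of 617 and 751 CPM on the HFD and 616 and 641 CPM on chow. The part of these markers in the values of the 8 genes was not tested.

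**Figure D4:**
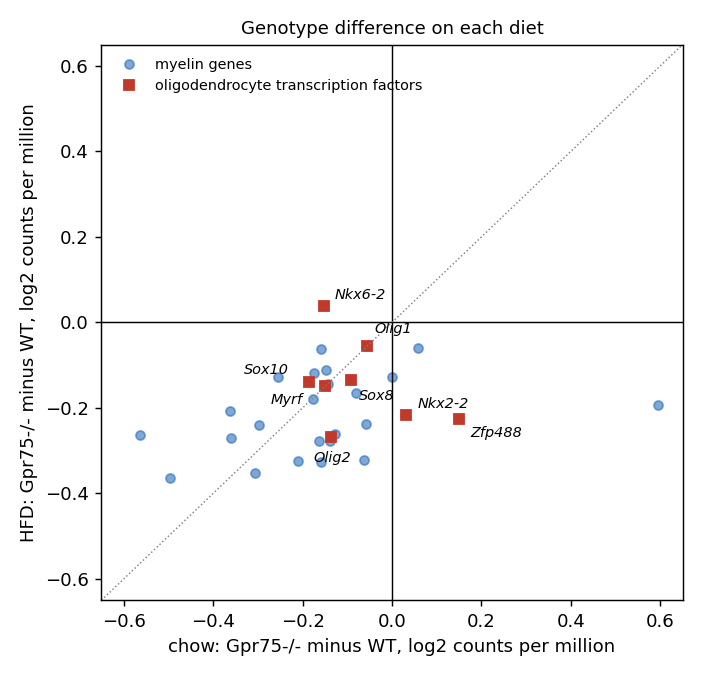
Difference of Gpr75-/- minus WT in log2 CPM on chow (horizontal axis) against the HFD (vertical axis) for the 8 transcription factors (red squares, named) and 23 myelin genes (blue circles), with the dotted line where both are equal. Olig1, Olig2, Sox10, Sox8 and Myrf lie below 0 on both diets, Nkx2-2 and Zfp488 below 0 on the HFD alone, and Nkx6-2 below 0 on chow alone.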

How the data were processed

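Hypothalamus RNA of 12 male mice, 3 per group, was grouped by the sample titles. The submitters' processing notes name STAR, featureCounts, StringTie and DESeq2 with the build GRCm39, and the study's methods state DESeq2 on raw counts. The signal deposited by the authors is the mean over the 6 mice of a diet of counts divided by size factors. The group means deposited by the authors are log2 values of 1 + log2 CPM, a scale inferred from the data. For genes that vary between mice they lie below the arithmetic mean. They were converted to log2 CPM and subtracted, genes with a mean under 10 being left out. The authors' own fold changes, standard errors, Wald statistics and p-values per gene were not used. Rounding limits are 0.005 to either side of a deposited value, and counting errors from the mean count over 3 mice per group, taking size factors near 1, with a multiplier of 1.96. The 95% intervals cover counting error only. Transcript lengths are the longest GENCODE M21 transcript, found for 99.8% of listed genes. No coordinates were taken from that annotation, whose build differs from that of the tables. Promoters are RefSeq windows. The conversion was run on simulated data with known changes. Those values were written on the same inferred scale without noise, so the run checks the computation and the rounding limits alone. It could not test the scale, the averaging over mice or the spread between mice.

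No test was made with these group means. Named are all 8 regulators and, of the myelin, precursor and other regulator lists, the 3 genes lowest and the 3 highest on each diet, except that some results for single genes are not reported here. The 8 genes, the lists and the mark of 0.15 were chosen with earlier results of these data known. Alternatives were a centring on the median of all genes, no filter, a minimum of 100, protein-coding genes, marks of 0.1 and 0.25, list means, the myelin list without 1 gene, and leaving out each regulator. Python 3.11.15, numpy 2.4.6, pandas 2.3.3 and matplotlib 3.10.9 were used.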

Additional observations from a re-analysis of the deposited data

How the results depend on the processing

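Medians were compared within the rounding of a single regulator, 0.05 log2 to either side, and counts and shares within 1.5 times. Centring, the filters on the mean and the restriction to protein-coding genes could not move the medians of the 8 genes, since the median of all genes was 0 and every regulator is protein coding with a mean of at least 113, so these settings say nothing of stability. Under list means, the myelin list without 1 gene and leaving out each regulator, the gap between the regulators and the myelin genes kept its sign. With a mark of 0.1 log2, 6 of the 8 regulators were lower on the HFD beside 16.6% of all genes, and 4 of 8 on chow beside 20.8%. With a mark of 0.25 log2, 1 of the 8 was lower on the HFD (Olig2) beside 4.43% of all genes, and 0 on chow beside 6.06%. With a minimum mean of 100, 6.57% of all genes were lower past the mark of 0.15 on the HFD. The change of the genotype difference from chow to the HFD was -0.0704 log2 as a mean over the 8 genes, an alternative added after the data were seen. The gap between regulators and myelin genes ranged over the alternatives from 0.02 to 0.09 log2 on chow and from 0.07 to 0.10 on the HFD. On chow it was 0.02 without Olig1, Sox8, Nkx2-2 or Zfp488, and 0.09 with list means, so its size there rests on the choice of genes and summary. The ratio on a count scale was not run, since the columns give no value other than the one reported. Leaving out single mice was not run for lack of values of single mice. No paired analysis was possible because the group means carry no replicate numbers. Depth limits Zfp488 and Nkx2-2, whose counting errors of 0.11 and 0.08 log2 are the largest of the 8.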

Other observations

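The Notch targets Hes5 and Hes1, which hold neural precursors in an immature state, had lower means in Gpr75-/- mice on chow and not on the HFD. Hes5 averaged 9.97 CPM in WT and 6.19 CPM in Gpr75-/- mice on chow (fold 0.621), and 5.88 and 6.30 CPM on the HFD (fold 1.07). Hes1 averaged 10.2 CPM in WT and 8.48 CPM in Gpr75-/- mice on chow, and 7.42 CPM in WT and 0.11 log2 more in Gpr75-/- mice on the HFD. The WT mean on chow was the highest of the 4 groups for both genes, and the tables of the diets were normalized separately. Tcf7l2 had means of 334 CPM in WT and 349 CPM in Gpr75-/- mice on chow, and 292 and 245 CPM on the HFD. Its chow means are 1 rounding step apart and cannot be separated from equality. Counting errors were 0.10 log2 for Hes5 and 0.01 log2 for Tcf7l2 on chow. On the HFD they were 0.11 log2 for Hes5 and 0.10 log2 for Hes1, close to the size of the differences there, so that no difference was detectable at this depth, and the spread between mice is not given here for any of these genes.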
